A study of Bos taurus with 20 samples.

Results

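The genes described here are 10 classic interferon-stimulated genes (ISG) of cattle, namely ISG15, HERC5, USP18, MX1, MX2, OAS1X, OAS1Y, OAS1Z, OAS2 and RSAD2, measured in the blood of pregnant cows at gestational day 63. They were taken as a list of symbols and matched to Entrez identifiers, and all 10 were among the 37063 genes of the counts and among the 16206 genes that reached 10 counts in 5 or more cows. In 9 of the 10 genes the highest of 20 levels was in the blood of the cow that later delivered the lightest calf, of 30 kg. With edgeR, all 10 transcripts had a negative slope on calf birth weight (BW), as did 53.4% of all genes tested, but the false discovery rate (FDR) was below 0.05 for 0 of them, and the median slope was -0.062 per kg on the log2 scale with that cow and -0.020 without it. Across the 20 cows, all 45 pairs of the genes had a positive rank correlation, and OAS1X was the least tied to the rest.

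Type I interferons bind a receptor on nearly every cell and, through transcription factors such as STAT2 and IRF9, switch on a shared set of antiviral genes. In ruminants the elongating conceptus secretes interferon tau, a type I interferon, as the signal by which the dam recognizes pregnancy, and ISG15, MX and OAS transcripts in circulating leukocytes are known to increase around that time. The signal fades as the conceptus attaches, well before the stage sampled here. ISG15 is a ubiquitin-like protein, HERC5 is the ligase that joins it to other proteins, and USP18 removes it and also restrains the interferon receptor. MX1 and MX2 are dynamin-like GTPases that trap viral components, the OAS enzymes make the 2-5A messenger of the antiviral response, and RSAD2 (viperin) makes a nucleotide that stops viral RNA synthesis.

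Blood was drawn from 20 recipient cows, described in the study's methods as lactating dairy cows and in its list of data sets as Angus. All carried a female fetus from an in vitro produced embryo, from the oocyte of a beef donor and X-sorted semen, and all were at day 63. There was 1 library per cow and 1 condition, with no non-pregnant cows, so the level of an ISG could not be compared with that outside pregnancy. The calves weighed between 30 and 72.5 kg, and each cow is named here by the weight of its calf, so that the 30 kg cow is the recipient that delivered the 30 kg calf. Total counts were between 24632077 and 39892111 per library. Levels are given in CPM, the usual scaling of a gene's count to the total of its library, with TMM factors applied and not corrected for transcript length, so that they were compared between cows and not between genes. Where a gene is given as having the highest CPM of a list, this ranks reads and not transcripts. No batch is named in the labels or the methods, and therefore no comparison within batches could be made.

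Before the ISG could be compared between cows, 2 libraries stood apart, those of the 39 kg and the 30 kg calf. The counts of the 39 kg library were reproduced by a weighted sum of other libraries. Over the 11446 genes with a mean of at least 100 counts, the fitted sum drew 98.3% of that library from the 9 libraries of the other calves of 43 kg or less, at between 9.75% and 11.9% each, and no more than 0.693% from any heavier calf. A sum of those 9 libraries alone was within 5% of the deposited count for 99.2% of these genes. The chi-square per degree of freedom of the fit to all 19 others came to 0.213, where counting noise alone gives about 1, whereas fits of the other 19 libraries, made without the 39 kg library, gave between 20.7 and 438. The 39 kg library held the highest of 20 values in 0 of the 16206 genes, and each other library did so in at least 441. It thus did not vary as an independent cow, how its counts came about was not tested, and 19 independent libraries remained. Since the 30 kg library is among the 9, the sum fitted to the 39 kg library includes the ISG counts of the 30 kg cow. The ISG themselves were fitted less closely than most genes. For ISG15, MX2, OAS1X, OAS2 and RSAD2, 5 of the 10, the deposited count was more than 5% below the sum of the 9, where 0.847% of all genes in the fit missed it by 5% or more in either direction. The largest gap was in OAS2, with 1737 counts against 1937 (-10.3%). MX2 had 10972 counts against 11920 (-7.95%), and HERC5, within the 5%, had 4450 against 4360. The median slope and the calls of the 10 ISG are given with and without it. So is the number of them with a Spearman p below 0.05 against BW.

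**Figure D1:**
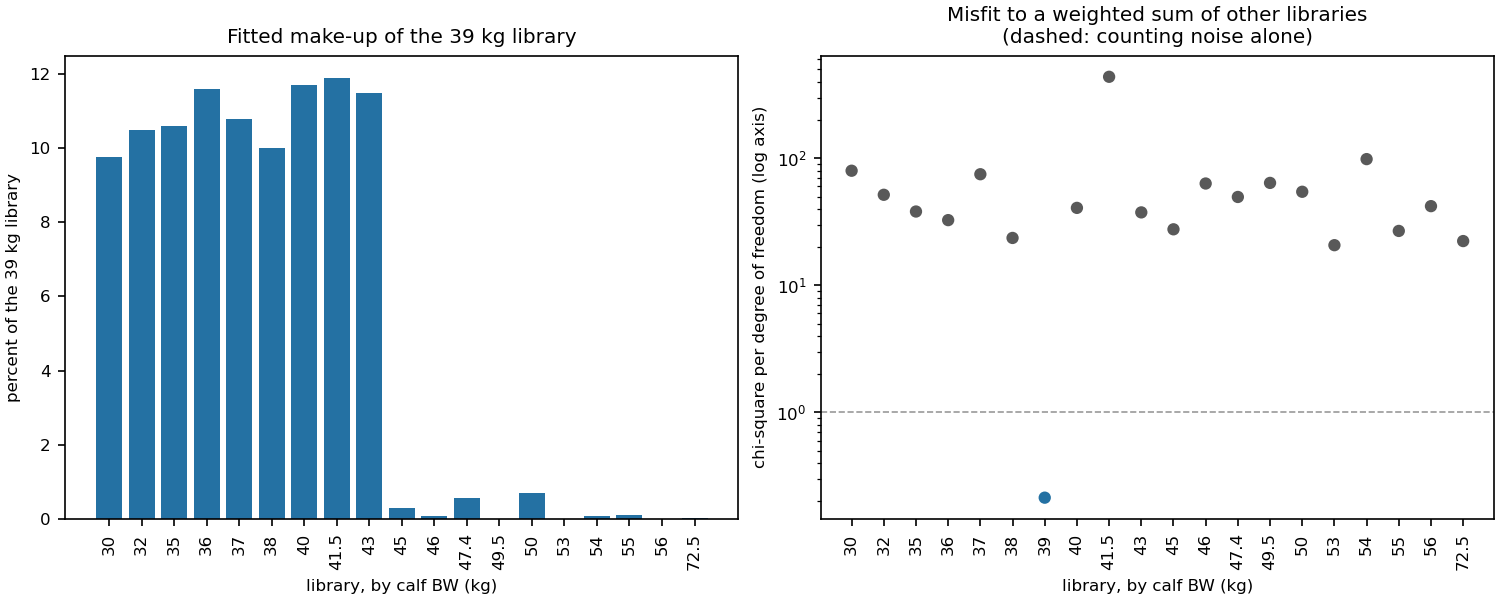
Left, the percent of the 39 kg library that the fit drew from each other library, ordered by calf BW in kg. Right, the chi-square per degree of freedom (log axis) of each library fitted by the others without the 39 kg library, with the level of counting noise as a dashed line. The 9 other lightest calves supply 98.3%, and only the 39 kg library, at 0.213, lies under the line.

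The 30 kg library carried high ISG together with transcripts of nervous tissue. A list of 17 neuronal genes, written after these values were seen, had 13 genes above each of the 18 other libraries (the 39 kg library not counted). SNAP25, a synaptic fusion protein, was at 15.6 CPM in the 30 kg library and at most 0.977 CPM in the 18 others. CAMK2A, a synaptic kinase, was at 14.3 CPM against at most 0.896. The summed CPM of the list was 104 in the 30 kg library and between 33.2 and 54.5 in the 18 others, and its gene of highest CPM, MAP2, was within their range at 25.8 CPM. NEFH had 0 counts in the 30 kg library and was found in 15 of the 20, and THY1 had 0 counts in each of the 20. The part of these transcripts in the ISG values of this library was not tested.

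Summed levels of blood cell marker lists in the 30 kg library lay within the range of the 18 others or at its edge. Among 20 libraries, the summed CPM of 11 neutrophil markers had rank 11 (5170 CPM, others 3980 to 6460). That of 8 monocyte markers had rank 17 (2230 CPM, others 1790 to 3830), and that of 7 NK cell markers had rank 19 (184 CPM, others 169 to 343). The plasmacytoid dendritic cell list, named for the main blood source of type I interferon, had rank 4, at 327 CPM against 242 to 345. The 7 B cell markers summed to 1160 CPM, level with the highest of the others. Single markers did leave the range, such as CD53, which was above the 269 CPM of the highest other, BLK at 80.7 CPM (others 45.4 to 75.0), IL3RA at 6.17 CPM (others at most 5.59) and NCR1 at 26.1 CPM (others at least 28.0). In bulk blood, fewer cells of a type and less RNA per cell cannot be told apart.

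**Figure D2:**
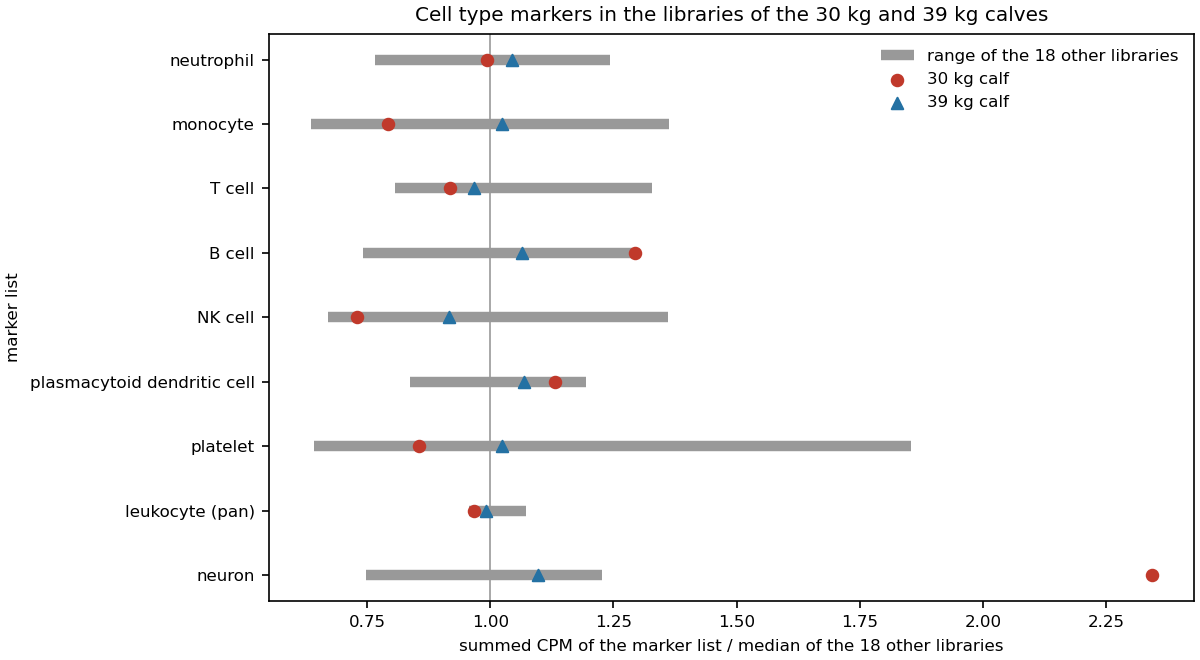
Summed CPM of each marker list in the libraries of the 30 kg calf (red circle) and the 39 kg calf (blue triangle), divided by the median of the 18 other libraries, whose range is the grey bar. Only the neuronal list of the 30 kg library, at 104 CPM, is far outside its bar.

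The ISG15 system was examined first. ISG15 (Entrez 281871) was at 162 CPM in the 30 kg cow, whereas the 18 others ranged from 7.67 CPM in the 72.5 kg cow to 25.2 CPM in the 43 kg cow, with a median of 16.7 CPM. Its level in the 30 kg cow was 9.69-fold the median of the others, and no other cow came near it. HERC5 (Entrez 514373) varied far less, from 84.3 to 133 CPM in the 18 others with a median of 104, and reached 224 CPM in the 30 kg cow. USP18 (Entrez 515202) was between 11.8 and 21.3 CPM in the others and at 44.0 CPM in the 30 kg cow, which is 2.71-fold their median of 16.2. The ligase and the protease of the system therefore varied less across cows than ISG15. Their SD was 0.197 and 0.253 on the log2 scale in the 18 cows, near the median of 0.229 for all genes, while that of ISG15 itself was 0.563.

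The MX genes did not keep to one ratio. MX2 (Entrez 280873) was at 1600 CPM in the 30 kg cow, against 97.4 to 220 CPM in the 18 others (median 154). MX1 (Entrez 280872) was at 1260 CPM there, against 130 CPM in the 47.4 kg cow to 412 CPM in the 36 kg cow (median 320). The log2 difference of MX1 minus MX2 was -0.35 in it and between 0.12 and 1.79 in the 18 others, with a median of 1.03.

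Among the OAS genes, OAS2 (Entrez 529660) had the largest rise in the 30 kg cow, at 284 CPM against 7.87 to 50.4 CPM in the 18 others, which is 11.8-fold their median of 24.1. OAS1Y (Entrez 654488) was at 116 CPM there and between 9.81 and 39.6 CPM in the others. OAS1Z (Entrez 519922) was at 204 CPM, only 1.14-fold the 179 CPM of the 37 kg cow. OAS1X (Entrez 347699) was the exception, since the 30 kg cow ranked 4, at 63.7 CPM, and the highest value, 200 CPM, was in the 37 kg cow. In the 18 others OAS1X ranged 14.9-fold, from 13.4 CPM in the 55 kg cow, the widest range of the 10 genes. The cow of the 37 kg calf had the highest value of the 18 in all 4 OAS genes. The 4 genes lie side by side in the RefSeq table of ARS-UCD2.0, where OAS2 and OAS1Y overlap. They are close paralogues, and the sources used here do not say how reads shared by several genes were assigned, so that the split between them is uncertain.

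RSAD2 (Entrez 506415) was at 250 CPM in the 30 kg cow and between 13.2 CPM, in the 54 kg cow, and 41.2 CPM, in the 56 kg cow, in the 18 others. The median of the others was 26.1 CPM, so that the 30 kg cow was 9.57-fold above it.

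**Figure D3:**
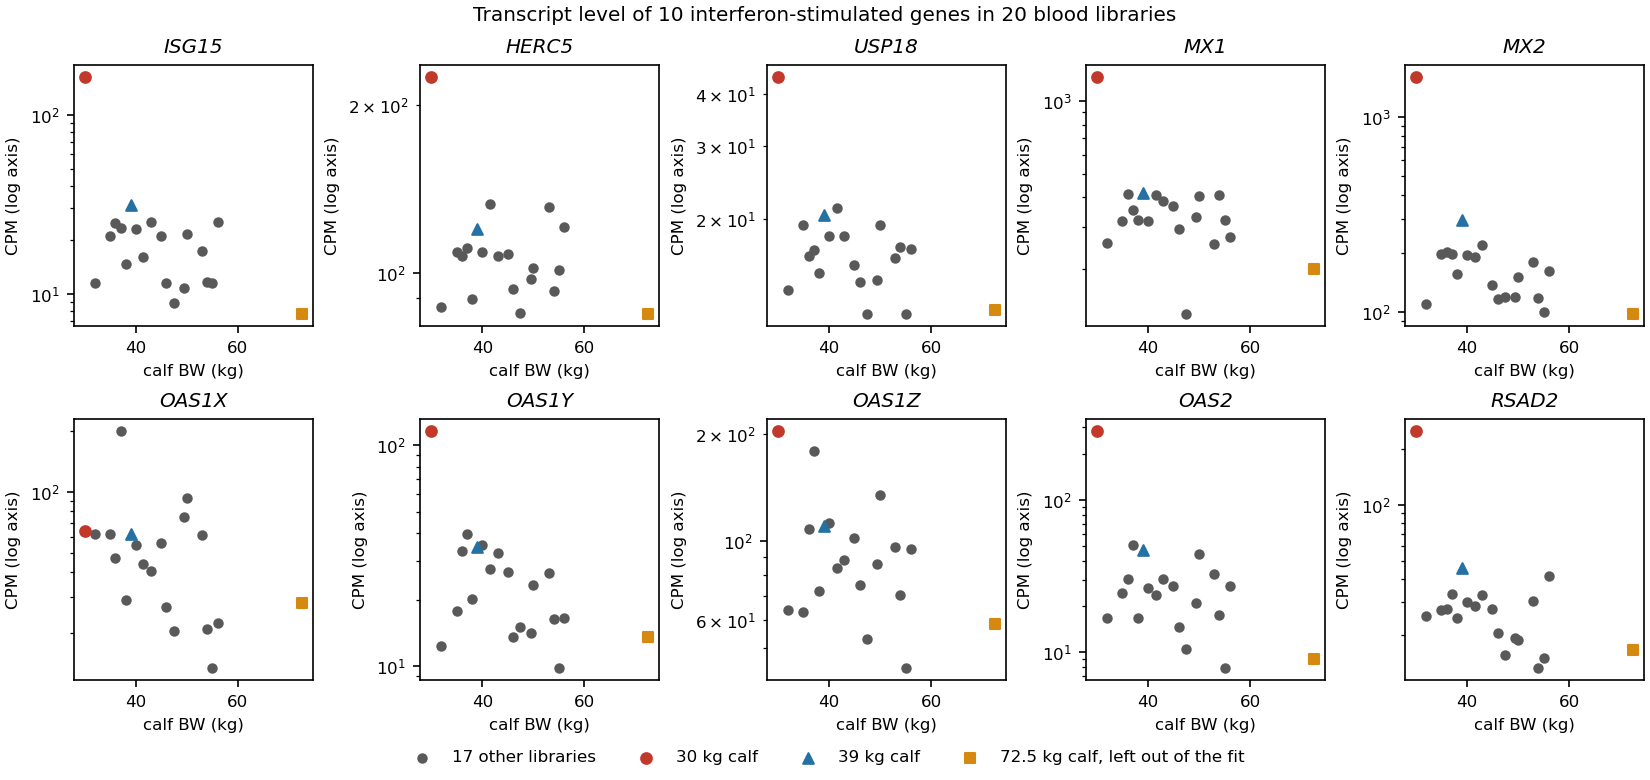
Each panel plots the CPM of 1 gene (log axis) against calf BW in kg, with 1 point per library. The 30 kg cow (red) is highest in 9 of 10 panels, the 39 kg library (blue triangle) lies near the top of most, and the 72.5 kg calf (orange square) was left out of the fit on BW.

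The 30 kg library held the highest of 20 values in 5.99% of all genes tested. It was more than 2-fold above each of the 18 others, on the log2 CPM scale, in 7 of the 10 ISG and in 0.432% of all genes, or 70 genes. The 3 ISG that did not pass that fold were HERC5, OAS1Z and OAS1X. At the other end, the lowest value was in the 55 kg cow for 5 genes and in the 72.5 kg cow for 3. The cow of the 32 kg calf, the second lightest, was not among the high ones, with a median rank of 17 over the 10 genes, where rank 1 is the highest. The median SD of log2 CPM over the 20 libraries was 0.839 for the ISG, and 0.224 for all genes. In the 18 cows it was 0.477, and 0.229 for all genes, with 56.1% of genes more variable than HERC5 and 10.5% more variable than OAS1X.

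The relation to calf BW was the main comparison of the study, which modelled counts on BW as a continuous variable and left out the 72.5 kg calf as an outlier. The 39 kg library is among the 19 remaining ones, so that fewer than 19 of them were independent cows. In these 19, the median slope of the 10 ISG was -0.062 per kg on the log2 scale, whereas the median of all genes was -0.00072. With edgeR's quasi-likelihood test, 0 of 10 had an FDR below 0.05 (0.0% of all genes tested), and 1, MX2, had an FDR below 0.1 (0.315% of all genes). At an unadjusted p below 0.05, 9 of 10 were lower with a heavier calf, against 7.08% of all genes. The 10 genes are correlated with each other, so these 9 do not count as 9 separate observations.

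The slopes differed between genes of the same family. For MX2 the slope was -0.089 ± 0.019 per kg (SE over 19 libraries, edgeR FDR of 0.0976) and for MX1 it was -0.040 ± 0.014 (edgeR FDR of 0.219). OAS2, at -0.092 ± 0.024, and OAS1Y, at -0.072 ± 0.018, were steeper than OAS1X at -0.052 ± 0.025 and OAS1Z at -0.029 ± 0.014. Differences between these slopes were not tested. ISG15 had a slope of -0.080 ± 0.021 and RSAD2 one of -0.083 ± 0.020. USP18 was at -0.029 ± 0.010. HERC5, at -0.015 ± 0.0083, was the only one of the 10 with an unadjusted p above 0.05 (0.0819).

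The call of MX2 at an FDR below 0.1 was not stable. In 19 fits that each left out 1 cow it held in 2, those without the 32 kg and the 41.5 kg cow, and the edgeR FDR ranged from 0.033 to 0.324, the latter without the 30 kg cow. Leaving out the 39 kg library changed the slopes little. The median slope was then -0.062, and 7 of 10 genes had an unadjusted p below 0.05 and a negative slope, against 6.08% of all genes. The FDR of MX2 was 0.171 with edgeR, and 0 genes of the whole table had an edgeR FDR below 0.1, while 1937 had an unadjusted p below 0.05 and DESeq2 called 91 at an FDR below 0.05. With DESeq2, the tool named in the study's methods, 2 of 10 had an FDR below 0.05 in 19 cows, against 0.36% of genes called and lower with a heavier calf. These were MX2 (DESeq2 FDR of 0.0297) and OAS1Y (DESeq2 FDR of 0.0389). It was 0 of 10 without the 39 kg library (0.174% of genes) and also without the 55 kg cow (0.287% of genes). Leaving out the 32 kg cow gave the opposite, with 2 ISG lower under an edgeR FDR of 0.05 (0.105% of all genes) and 6 lower under a DESeq2 FDR of 0.05 (0.738% of genes).

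Leaving out the 30 kg cow took away most of the slope. The median of the 10 genes was then -0.020 per kg, 3 genes (MX2, OAS1X and OAS1Y) had an unadjusted p below 0.05 and a negative slope against 6.81% of all genes, and DESeq2 called 0 of 10 (0.33% of genes). ISG15 moved from -0.080 to -0.020, OAS2 from -0.092 to -0.021, RSAD2 from -0.083 to -0.021 and MX1 from -0.040 to -0.0072. HERC5 changed sign, to 0.0017. OAS1X, in which the 30 kg cow was not the highest, did not lose its slope, at -0.058 ± 0.027 (edgeR p of 0.0438, FDR of 0.355). It rested in part on the 37 kg cow, which had its highest level, and was -0.030 ± 0.020 in the 18 cows left without that one (edgeR p of 0.151). Without both libraries the median was -0.015, and OAS1X alone had an unadjusted p below 0.05 (0.0499), or 1 of 10 genes against 5.7% of all genes.

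**Figure D4:**
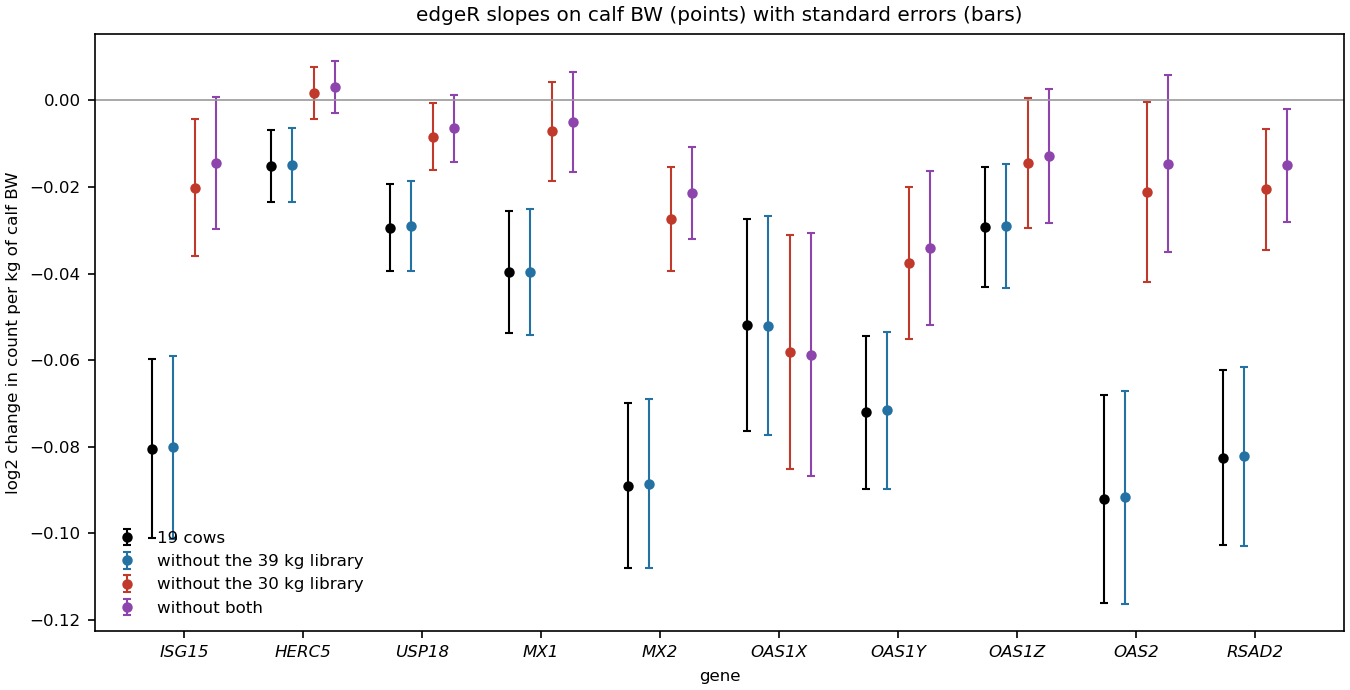
Slope of each gene on calf BW (log2 change per kg, edgeR), with its standard error as a bar, in 19 cows (black), without the 39 kg library (blue), without the 30 kg library (red) and without both (purple). Red points lie closer to 0 than black ones for 9 of 10 genes, OAS1X being the exception at -0.058, and black and blue points nearly coincide.

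In rank correlations a single extreme cow weighs less. Over all 20 libraries, 4 of 10 genes had a Spearman p below 0.05 (15.2% of all genes), all negative, and 0 of 10 had an FDR below 0.05. MX2 had a Spearman correlation with BW of -0.60 (permutation p = 0.00615, FDR of 0.16) and a Pearson correlation of -0.55 (permutation p = 0.0257, FDR of 0.313). For OAS1X these were -0.53 (permutation p = 0.0177, FDR of 0.221) and -0.48 (permutation p = 0.032, FDR of 0.33). OAS1Y had a Spearman correlation of -0.53 (permutation p = 0.0181) and RSAD2 of -0.48 (permutation p = 0.035). Without the 39 kg library 3 of 10 genes, MX2, OAS1X and OAS1Y, had a Spearman p below 0.05, against 13.3% of all genes. RSAD2 then had a correlation of -0.46 (permutation p = 0.0504). Without the 30 kg and 39 kg libraries, MX2 (-0.52, permutation p = 0.0298, FDR of 0.32) and OAS1X (-0.49, permutation p = 0.0402, FDR of 0.347) had a Spearman p below 0.05, 2 of 10 genes against 13.3% of all genes. The 72.5 kg and 30 kg cows lay farthest from the median BW. Without them the Pearson correlation was -0.43 for MX2 (permutation p = 0.0757), -0.49 for OAS1X (permutation p = 0.0402) and 0.088 for HERC5. The remaining genes were between -0.40 and -0.147. OAS1X alone had a Pearson p below 0.05, against 13.4% of all genes. BW spans a shorter range without those cows.

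The correlation between the 10 genes was examined across cows. All 45 pairs had a positive Spearman correlation over the 20 libraries, from 0.305 to 0.901 with a median of 0.711. Without the 30 kg and 39 kg libraries all 45 were still positive, with a median of 0.659. At a Spearman FDR below 0.05 over all genes, ISG15, MX2 and OAS1Y each had 4 of the other 9 as partners, and OAS2 and RSAD2 had 3. Of all 16205 other genes, between 0.0741% and 0.142% were positive partners of these genes at that FDR. MX1, OAS1X, OAS1Z, HERC5 and USP18 had 0 partners in the whole table at that FDR, while at an unadjusted p below 0.05 they had between 5 and 9 of the 9, against 4.57% to 10.6% of all genes. With Pearson's method, OAS1Z had 3 partners among the 9, HERC5 4 and USP18 6, and MX1 and OAS1X again 0. Among all 16205 other genes, OAS1Z, HERC5 and USP18 had 10, 13 and 27 Pearson partners. ISG15 had 8 of the 9 (50 of all genes), OAS1Y and OAS2 7 (62 and 43), MX2 6 (40) and RSAD2 5 (31). The median Pearson correlation of the 45 pairs was 0.842, and 0.669 without the 30 kg and 39 kg libraries. Each FDR of a pair is adjusted over the correlations of 1 of its genes with all other genes. A pair therefore has 2 of them, given here in the order in which the genes are named. All p-values and FDR of pairs are over the 20 libraries, of which the 39 kg one did not vary as an independent cow. The highest Spearman correlation was that of OAS1Z and OAS2, at 0.90, with a Pearson correlation of 0.90 (permutation p = 1e-05 for both, the smallest that 100000 resamples give). The Spearman FDR was 0.081 and 0.0231, and the Pearson FDR 0.0203 and 0.00705. The Spearman correlation of this pair was 0.88 without the 30 kg and 39 kg libraries. MX2 and OAS1Y, which lie on different chromosomes, had a Spearman correlation of 0.89 and a Pearson correlation of 0.91 (permutation p = 1e-05 for both), with a Spearman FDR of 0.0147 and 0.0203 and a Pearson FDR of 0.0081 and 0.0125, and a Spearman correlation of 0.87 without the 2 libraries. By Pearson correlation the highest pair was ISG15 and MX2, at 0.95 (permutation p = 1e-05, FDR of 0.0081 for either gene), with a Spearman correlation of 0.87. Without the 30 kg and 39 kg libraries the Pearson correlation of ISG15 and MX2 was 0.86, and that of OAS1Z and OAS2, then the highest pair, was 0.92. Within the ISG15 system, the Spearman correlation of ISG15 with HERC5 was 0.75 (permutation p = 0.00021, FDR of 0.0914 and 0.23) and with USP18 0.76 (permutation p = 0.00024, FDR of 0.0949 and 0.183). The Pearson correlations were 0.89 (permutation p = 3e-05) and 0.92 (permutation p = 1e-05).

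OAS1X and MX1 were the loosest members. The 9 pairs with OAS1X had a median Spearman correlation of 0.45, and the 36 pairs without it one of 0.75. Among the 10, its highest correlations were 0.68 with OAS2 (permutation p = 0.00116, FDR of 0.534 and 0.279) and 0.63 with OAS1Z (permutation p = 0.00323, FDR of 0.678 and 0.486). With OAS1Y, which like OAS1Z is adjacent to it, the correlation was 0.475 (permutation p = 0.0355, FDR of 0.808 and 0.405). The genes of the whole table most like OAS1X lay outside the list, namely LOC619159 (0.845), LOC790101 (0.842) and the galanin receptor gene GALR1 (0.792), which did not exceed 0.706 CPM in any of the 18 cows. None of the 16205 other genes had a Spearman or a Pearson FDR below 0.05 with OAS1X, and 982 had an unadjusted Spearman p below 0.05. MX1 and MX2, although adjacent genes, had a Spearman correlation of 0.56 (permutation p = 0.0116, FDR of 0.358 and 0.249), and 0.40 without the 2 libraries. The lowest pair without the 2 libraries was MX1 with RSAD2, at 0.055. The gene annotated on the other side of MX1, TMPRSS2, was singled out after its values were seen and had a Spearman correlation with MX1 of 0.786. Its slope on calf BW was -0.064 (edgeR p of 0.0025), and -0.021 without the 30 kg cow. Whether reads pass between these adjacent genes was not tested.

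**Figure D5:**
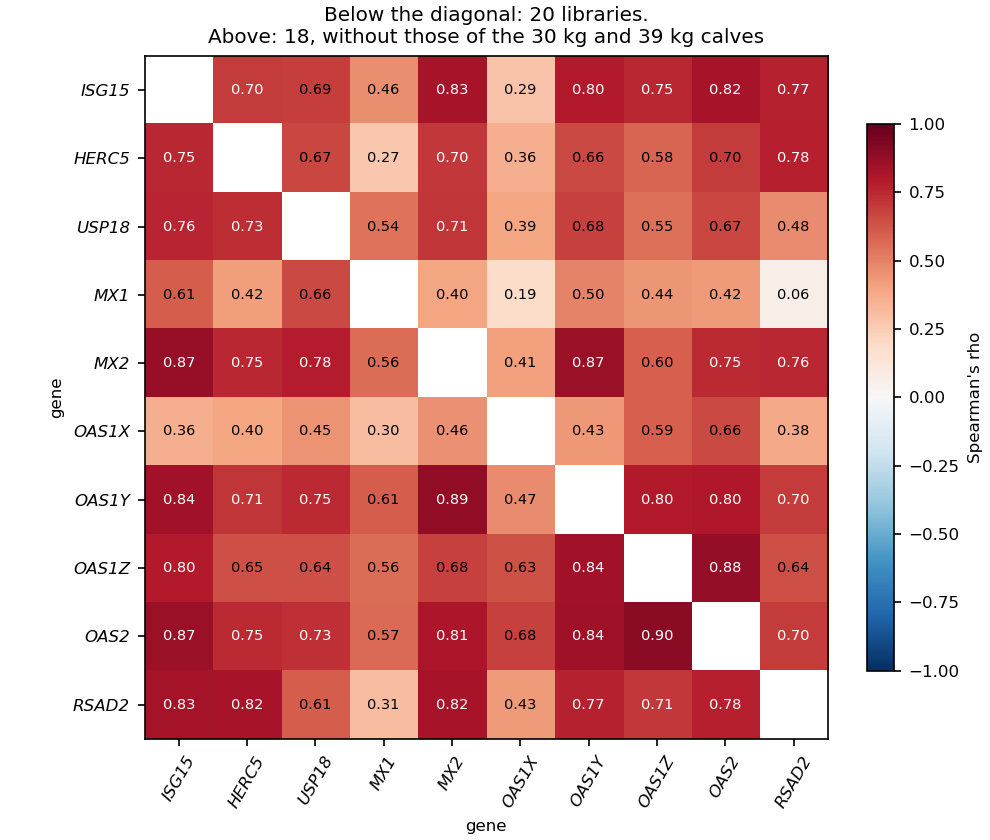
Spearman correlation of each pair of genes across libraries, below the diagonal over 20 libraries and above it over the 18 without the 30 kg and 39 kg calves. All cells are positive, pairs with OAS1X are among the palest on both sides, and MX1 with RSAD2 is the palest above the diagonal, at 0.055.

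The other genes were ranked by their mean Spearman correlation with the 10 ISG over 20 libraries. First was RIGI, the cytoplasmic sensor of viral RNA, at 0.777, whereas the median over the 16196 other genes was -0.01. RIGI was at 231 CPM in the 30 kg cow and between 56.4 and 137 CPM in the 18 others. DHX58, a regulator of RIGI signalling (0.739), IFI44 (0.737), the helicase gene ZNFX1 (0.735), the RNA-editing enzyme ADAR (0.734), TRANK1 (0.715) and IFIT5, which binds RNA 5' ends (0.715), were among the first 10. The others were LOC101907799, LOC100298356 and LOC112441507, of which LOC101907799 is annotated beside MX2. Without the 30 kg and 39 kg libraries 9 of the 10 were still among the first 10, and the other, IFIT5, had rank 11. At the opposite end were KLHL18, a substrate adaptor of a ubiquitin ligase (-0.711), LOC783142 (-0.661), the cytokine gene CLCF1 (-0.642), LOC101902458 (-0.633) and LOC789551 (-0.629). Of these 5, 3 were still among the last 5 without the 2 libraries, and LOC101902458 and LOC789551 were not. KLHL18 kept a narrow range, from 77.9 to 102 CPM in the 18 cows.

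The rest of the pathway was examined from the ligand to the effectors. Of 15 interferon genes listed, 11 were in the counts and 2, IFNG and IFNE, passed the filter. The interferon tau genes IFNT2 and IFNT3 had 0 counts in each of the 20 libraries. The monocyte markers CX3CR1 and FCGR1A also had 0 counts in each of the 20. A count of 0 in all libraries is therefore not read here as absence of the transcript from the blood. IFNB1 had 92 counts in all, found in 11 libraries and not in that of the 30 kg cow. Of 12 genes listed for trophoblast, 8 had 0 counts in all cows, PAG2, PAG4 and PAG7 among them. The symbol of highest CPM, PAG1 at a mean of 357 CPM, was within the range of the others in the 30 kg cow at 350 CPM. PAG1 also names a membrane adaptor of leukocytes, and the table of names does not tell which gene it is. Its level is therefore not read as trophoblast RNA.

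Shares of the lists that follow can be read against the 7.08% of all genes that were lower with a heavier calf and the 6.78% that were higher at an unadjusted edgeR p below 0.05, and counts of negative slopes against 53.4% of all genes, or 53.2% without the 30 kg cow. Without the 39 kg library each list had the same number of genes under that p in each direction, and 0 had an edgeR FDR below 0.1. The fits without the 30 kg cow keep the 39 kg library, whose fitted sum includes counts of that cow. Without both libraries, 5.7% of all genes were lower with a heavier calf at that p. DESeq2 called HERC3, UBA7, UBE2L6, IFI6, IFI27, IFIT5, PML, GBP5 and IRF7 at an FDR below 0.05 in 19 cows, of which IFI6, IFI27, GBP5 and IRF7 without the 39 kg library and HERC3 and GBP5 without the 30 kg cow.

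Of 13 receptor and signalling genes listed, 12 were tested, with a median slope of -0.0042 per kg, and of -0.0013 without the 30 kg cow. At an unadjusted p below 0.05, 1 was lower with a heavier calf (IRF7, with an edgeR FDR of 0.0976) and 2 were higher, JAK1 at 0.0058 per kg (edgeR p of 0.0182) and TYK2 at 0.011 per kg (edgeR p of 0.00274). These 3 genes were still under that p without the 30 kg cow, with IRF7 at -0.023 (edgeR p of 0.00305). Without the 30 kg and 39 kg libraries, IRF7 and TYK2 were under it (edgeR p of 0.00533 and 0.00431), and JAK1 was not (edgeR p of 0.0655). The kinases JAK1 and TYK2 sit on the interferon receptor, and both were within the range of the others in the 30 kg cow. JAK1 was at 543 CPM against 542 to 670 in the 18 others and TYK2 at 194 CPM against 175 to 245. The receptor genes IFNAR1 and IFNAR2 had slopes of -0.00095 and -0.0048, with an edgeR p of 0.772 and 0.377. The phosphatase gene PTPN6 had a slope of 0.0024 (edgeR p of 0.534). IRF1 is listed at 0 in all cows, as are IFIT2, IFIT3, IFITM2 and CXCL10, which is likewise not read as absence.

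Of the 12 sensors of RNA and DNA, 10 had a negative slope, with 3 lower and 1 higher at an unadjusted p below 0.05. RIGI (-0.030 per kg, edgeR p of 0.00926) and DHX58 (-0.037, edgeR p of 0.00624) were lower with a heavier calf, whereas MAVS, the adaptor on mitochondria, had a slope of 0.00020 (edgeR p of 0.957). Without the 30 kg cow the slopes of RIGI and DHX58 were -0.011 and -0.0047, and 1 sensor gene was lower (STING1, edgeR p of 0.0301) and 1 higher (TBK1, a kinase downstream of the sensors, edgeR p of 0.0291). The sensor IFIH1 (MDA5) had a slope of -0.014 (edgeR p of 0.0825), and one of 0.00076 without that cow.

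Among partners of ISG15 conjugation, the activating enzyme UBA7 and the conjugating enzyme UBE2L6 had slopes of -0.033 (edgeR p of 0.00125) and -0.029 (edgeR p of 0.00104), and HERC3, a relative of HERC5, one of 0.0085 (edgeR p of 0.00215). None had an edgeR FDR below 0.1. The slope of UBA7 was -0.015 without the 30 kg cow (edgeR p of 0.0334), and -0.013 without the 30 kg and 39 kg libraries (edgeR p of 0.055). The slope of UBE2L6 was -0.025 without the 30 kg cow, in which its level of 37.2 CPM was close to the 36.5 CPM of the highest other. HERC6, adjacent to HERC5, had a slope of -0.017 (edgeR p of 0.0823), which was 0.0021 without the 30 kg cow (edgeR p of 0.768), and USP24, of highest CPM in the list, one of -7.1e-05. In the OAS pathway 2 of 6 were lower at an unadjusted p below 0.05, ADAR (-0.016, edgeR p of 0.00915) and EIF2AK2, the kinase PKR (-0.021, edgeR p of 0.0155). It was 0 of 6 without the 30 kg cow, with ADAR at -0.0043 (edgeR p of 0.207) and EIF2AK2 at -0.0069 (edgeR p of 0.302).

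Of the IFIT and IFI genes, 8 of 8 tested had a negative slope and 5 an unadjusted p below 0.05. When the 30 kg cow was left out, 6 of 8 had a negative slope and 3, IFI6, IFI27 and IFIT5, were under that p, and IFI44L moved from -0.011 to 0.0098. With the 39 kg library left out as well, IFI6 and IFI27 were under that p and IFIT5 was not (edgeR p of 0.0688). IFI27 was at 21.5 CPM in the 30 kg cow against 2.05 to 5.98 in the 18 others, with a slope of -0.076 (edgeR FDR of 0.0976) and of -0.041 without that cow. IFI6 had an edgeR FDR of 0.0976 as well. IFI16, of highest CPM among these genes, had a slope of -0.012 (edgeR p of 0.0101). Among 23 other antiviral ISG, 20 had a negative slope, and 13 were lower and 0 higher at an unadjusted p below 0.05. Of these 23, 3 were under that p without the 30 kg cow, namely PML, ISG20 and GBP5, and ZBP1, a sensor of unusual nucleic acid folds, moved from -0.034 to 0.00041. GBP5, a guanylate-binding protein whose level in the 30 kg cow (66.9 CPM) did not exceed the others' highest by much (66.7 CPM), had a slope of -0.036 with an edgeR FDR of 0.0976, and one of -0.035 without that cow. The 3 genes of highest CPM in this list, SAMD9, ZNFX1 and LAMP3, had slopes of -0.0073, -0.025 and -0.0057, and of -5.6e-05, -0.0082 and -0.0054 without the 30 kg cow. CMPK2, annotated beside RSAD2, had a slope of -0.051 (edgeR p of 0.00146) and of -0.012 without the 30 kg cow, and reached 77.0 CPM in that cow against at most 20.3 CPM.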

How the data were processed

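Blood RNA of 20 cows was sequenced by the authors, 1 library per cow. Per the submitters' processing notes and the study's methods, reads were checked with FastQC 0.11.9, trimmed with Trimmomatic, aligned with STAR 2.7.0b to bosTau9 and counted with featureCounts (Subread 2.0.3), and the authors deposited raw counts per Entrez gene. The strand setting and the handling of reads shared by several genes are not given in the sources used here. The labels name a SMARTer kit and the methods a Truseq kit. Symbols came from a RefSeq table of ARS-UCD2.0, which also gave the order, overlap and chromosome of neighbouring genes. None of its coordinates are printed, since the counts were made on another build.

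Slopes on calf BW were fitted with edgeR 4.0.16 (TMM, quasi-likelihood test) in R 4.3.3 on the genes that reached 10 counts in 5 or more cows, in 19 cows, with Benjamini-Hochberg adjustment over all genes. DESeq2 1.42.0 and limma 3.58.1 (voom) were alternatives. Correlations used log2 CPM with a prior count of 2 and two-sided permutation tests with 100000 resamples, in Python 3.11.15 with scipy 1.17.1. Each library was fitted as a non-negative weighted sum of the others, weighted by the inverse root of the mean count. Steps were tested on simulated data. Replicates are cows, except that the library of the 39 kg calf did not vary as an independent cow. That library is among the 19 of the fit, so its SE and p-values do not rest on 19 independent cows. The p-values measure the spread between libraries.

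The members and lists were chosen with earlier results of these data known. Named were all members, and from each list the genes with an FDR below 0.1 and the 3 of highest mean CPM, with the 10 genes most and the 5 least like the members. Other genes of the lists, the neuronal list, the single blood cell markers, the 3 genes most like OAS1X and TMPRSS2 were named after their values were seen. So were the fits without the 39 kg and 30 kg libraries together, those with the 72.5 kg calf but not the 30 kg calf, and DESeq2 with 1 cow left out. Some genes that this rule names are not reported here.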

Additional observations from a re-analysis of the deposited data

How the results depend on the processing

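The counts at an FDR below 0.05 depended on the tool, the filter and single cows. Where edgeR called 0 genes and 0 ISG in 19 cows, DESeq2 called 189 and 2, edgeR without a count filter 147 and 1, with all 20 cows 4 and 0, with total count as a covariate 1 and 0, and with all cows but the 30 kg cow 1 and 0. Leaving out 1 cow gave 0 to 37 genes and 0 to 2 ISG with edgeR, both highest without the 32 kg cow. With DESeq2 it gave 33 to 427 genes and 0 to 6 ISG, with 91 and 0 without the 39 kg library and 49 and 0 without the 30 kg and 39 kg libraries. The median slope of the ISG was between -0.0702 and -0.0203 with 1 cow left out, the latter without the 30 kg cow, -0.024 without it but with the 72.5 kg calf, -0.0146 without the 30 kg and 39 kg libraries, and -0.0884 per rank of BW. The slope of HERC5 was between -0.0192 and 0.00172 with 1 cow left out and 0.00304 without the 2 libraries, and its Spearman correlation with BW was 0.00516 without the 2 cows farthest from the median. The other 9 genes kept a negative slope and a negative correlation in the alternatives run. The median pair correlation was between 0.663 and 0.756 with 1 cow left out and 0.842 with Pearson's method, and the median SD between 0.494 and 0.861 with 1 cow left out and 0.477 without the 2 libraries. With neutrophil or monocyte marker scores as covariates, other size factors, voom, a stricter filter or the rank of BW, 0 ISG had an FDR below 0.05. No paired analysis was possible because there was only 1 group. Each of the 10 genes had CPM of 7.67 or more in every library at a depth of at least 24632077 counts. The small number of cows limits the precision, with 19 of them independent and fewer than 19 in the fit without the 72.5 kg calf.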
